A study of Caenorhabditis elegans with 2 samples.

Results

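Chromosome X carried 699 of the 3913 binding sites in the authors' optimal peak list for the homeobox protein CEH-82 of Caenorhabditis elegans, a nematode worm. A peak was taken as an X site when the list placed it on that chromosome in assembly ce11, and no measured value entered the choice. The assay was ChIP-seq (chromatin immunoprecipitation with sequencing), in which DNA attached to a protein is recovered with an antibody and sequenced. The animals were whole L1 larvae, the earliest larval stage, of mixed sex from strain OP212, with genotype unc-119(ed3) III; ddEx58. The study formed 1 group of 2 biological replicates, with no other genotype, stage or treatment analysed here. The protein followed was eGFP-ceh-82, a fusion to a green fluorescent protein, although the antibody field of the labels reads ceh-82. The labels describe an insertion targeting ceh-82, while the allele name ddEx58 has the form used for an extrachromosomal array, which animals can lose, so the share of cells carrying the fusion is unknown. The genes ceh-82 and unc-119 are annotated on chromosomes II and III, so neither native locus lies among the X sites. Whole larvae mix all tissues, and no site can be assigned to a cell type. The files hold no read counts, so the depth of each library is unknown.

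C. elegans hermaphrodites have a pair of X chromosomes and males a single one. A dosage compensation complex related to condensin binds both hermaphrodite X chromosomes and lowers their expression. It is recruited at discrete X elements called rex sites, whose best known sequence motif holds the letters GCGCAGG. Homeodomains typically contact AT-rich sites with a TAAT core, whereas GA-rich repeats are common in worm promoters. No list of rex sites and no peak list of another protein was analysed here.

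The X peaks with the highest signal repeatedly held GCGCAGG beside the summit, while none of the 34 autosomal peaks among the 50 strongest did. Signal is the enrichment value per peak written by the authors' caller, and it has meaning only within a list. Each stretch below is 25 bases around the motif, read 5' to 3' on the motif's own strand, with GCGCAGG in capitals, taken from the RefSeq sequence of WBcel235, which is the ce11 build. They are the 10 motif-bearing peaks among the 16 strongest on X, followed by the next in rank.
X peak 1, intergenic, motif at chrX:11094227-11094233, minus strand: gaaccattcGCGCAGGgacacctca
X peak 2, intergenic, motif at chrX:806674-806680, plus strand: gcgattatcGCGCAGGggtgtttgt
X peak 3, promoter window of nspc-17, motif at chrX:14525901-14525907, minus strand: ttgcctatcGCGCAGGgacagatgt
X peak 4, intergenic, motif at chrX:4209267-4209273, minus strand: gccgctatcGCGCAGGgacacctct
X peak 6, intergenic, motif at chrX:16682100-16682106, minus strand: aacaccatcGCGCAGGaacattggg
X peak 7, intron of mom-1, motif at chrX:6296576-6296582, plus strand: ataggtatcGCGCAGGgaagattta
X peak 9, promoter window of C18A11.13, motif at chrX:8036402-8036408, minus strand: ttttttatcGCGCAGGgacgtatgt
X peak 10, promoter window of ins-39, motif at chrX:1345056-1345062, plus strand: atgtcattcGCGCAGGgcagctgag
X peak 11, promoter window of T27A8.8, motif at chrX:16056651-16056657, minus strand: tggccactcGCGCAGGtagccatcc
X peak 12, intron of Y41G9A.17, motif at chrX:2997124-2997130, minus strand: aaatttatcGCGCAGGgaggaagta
X peak 17, coding exon of pks-1, motif at chrX:5429590-5429596, plus strand: ttaaatttaGCGCAGGgaggacgcc

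Some of these windows held the motif more than once, and some of the strongest peaks lacked it. The bases from 50 bp before to 50 bp after 4 summits show both cases, on the plus strand of ce11 from RefSeq, with capitals marking GCGCAGG on either strand (CCTGCGC is the same site read from the other strand).
X peak 7, intron of mom-1, chrX:6296522-6296622: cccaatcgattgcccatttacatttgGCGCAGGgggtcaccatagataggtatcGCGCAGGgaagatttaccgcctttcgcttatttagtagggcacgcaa
X peak 9, upstream of C18A11.13, chrX:8036369-8036469: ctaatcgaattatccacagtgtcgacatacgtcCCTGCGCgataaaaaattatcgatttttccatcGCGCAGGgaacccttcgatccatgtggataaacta
X peak 1, intergenic, chrX:11094171-11094271: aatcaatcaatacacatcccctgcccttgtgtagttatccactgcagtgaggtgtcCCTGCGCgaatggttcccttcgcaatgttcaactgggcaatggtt
X peak 5, intergenic, no match, chrX:13700823-13700923: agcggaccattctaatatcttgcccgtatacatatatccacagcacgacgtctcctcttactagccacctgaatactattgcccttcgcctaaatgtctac

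The strongest X site lay between genes at chrX:11094040-11094371. Its signal was 512 in the optimal list, 340.1 in replicate 1 and 179 in replicate 2, which put it at rank 5 among all optimal peaks, rank 3 in replicate 1 and rank 7 in replicate 2. The nearest protein-coding 5' end, that of W02H3.3, was 3965 bp away. The next 3 sites had similar signals and stood high in both replicates. The intergenic peak at chrX:806584-806803 had a signal of 452 (304 in replicate 1, 148 in replicate 2), 3911 bp from the 5' end of gtr-1. The peak at chrX:14525773-14526047 reached 451 (308 and 143) with its summit 743 bp upstream of nspc-17, a member of a nematode-specific peptide family. The intergenic peak at chrX:4209150-4209406 reached 435 (293 and 151). Each of these 4 ranked within the strongest 25 peaks of both replicates' own lists.

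Further sites of this size were spread over introns, intergenic DNA and promoter windows. A promoter window here covers 1000 bp before and 200 bp after a transcript's 5' end, for annotated genes of every kind. The peak at chrX:13700688-13701005, with a signal of 428 (254 and 175), had no GCGCAGG within 100 bp and lay 6034 bp from the nearest coding 5' end. An intron of mom-1, whose product acts in the secretion of Wnt signals, held a summit with a signal of 399.7 (247 and 153). The peak at chrX:8036292-8036554, with a signal of 367 (213 and 158), lay 4894 bp upstream of xol-1, the switch gene that sets male or hermaphrodite fate, and was counted as promoter-linked only through the non-coding gene C18A11.13. The window of ins-39, an insulin-family gene, held a summit with a signal of 360.0 (217 and 144). A coding exon of pks-1, a polyketide synthase gene, held a summit with a signal of 276 (181 and 88.9), and it lay 15188 bp from the nearest coding 5' end, farther than any other X summit outside promoter windows.

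**Figure D1:**
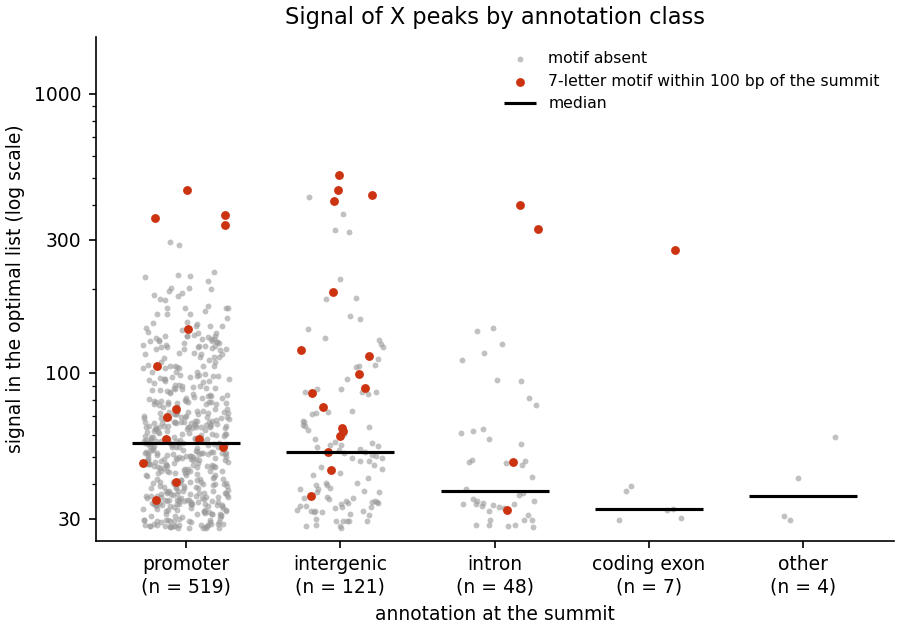
Signal of the 699 X peaks in the optimal list (log scale) by the annotation class at the summit; each point is a peak, red points have GCGCAGG within 100 bp of the summit, and black bars are class medians. Red points reach 451 in promoter windows and 512 in intergenic sequence, where grey points of 428, 371, 325 and 320.1 stand among them, while class medians lie between 32.5 and 56.2.

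Other strong promoter peaks lay at genes of varied function. Signals were 229 at rpl-11.2, which encodes a ribosomal protein of the large subunit, 224 at eef-1A.2, a translation elongation factor, and 219.7 at hsp-3, an Hsp70 chaperone of the endoplasmic reticulum. Signals were 214 at dpy-23, an AP2 adaptor subunit, 201 at vha-12, a subunit of the vacuolar proton pump, and 197 at the shared window of trap-2 and ile-2. ZC506.1 had a signal of 222, a window of the non-coding genes F33C8.8 and F33C8.9 had 201, and zfp-3 had 199.5. The window of puf-9, a Pumilio-type RNA-binding protein, had 295, and that of serp-1.1 had 288. None of these peaks held GCGCAGG within 100 bp of the summit. At the other end, the weakest X peaks had signals of 27.8 (intergenic), 27.8 (ceh-93, a homeobox gene) and 27.7 (tatn-1, a tyrosine aminotransferase gene).

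X contributed a larger part of the very strongest sites than of the list as a whole. It held 16 of the 50 strongest optimal peaks (32.0%), 17 of the top 50 in replicate 1 and 14 in replicate 2. It then held 12.7% of ranks 51 to 200, 16.6% of ranks 201 to 1000 and 18.2% of the remainder. Of those 50 strongest optimal peaks, 10 had summits outside every promoter window, and all 10 were on X, while the 34 autosomal ones were all inside. The replicates' own top 50 gave 11 outside peaks on X against 1 on autosomes, and 9 against 0. Above a signal of 200 stood 12 of 180 X peaks outside promoter windows (6.67%), 13 of 519 inside (2.50%), 5 of 679 autosomal peaks outside (0.736%) and 111 of 2535 inside (4.38%). Taken over all positions, 25 of 699 X peaks (3.58%) and 3.61% of autosomal peaks exceeded 200, so X did not hold a larger part at this level. These rank and signal levels were chosen after the values were seen and carry no test.

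GCGCAGG was more frequent at X summits than at autosomal ones, and within X more frequent outside promoter windows than inside. Both strands of the window within 100 bp of each summit were searched for it, as for the shorter GCGCAG, which every GCGCAGG contains, and 5 other motifs. GCGCAGG was present at 36 of 699 X summits (5.15%, exact 95% interval 3.63 to 7.06%) and 49 of 3214 autosomal ones (1.52%), an odds ratio of 3.51 (95% interval 2.26 to 5.44; Fisher's exact test, two-sided, p = 9.46e-07 adjusted over 7 motifs). The top lists of both replicates, each cut to the length of the optimal list, gave 4.84% ± 0.0464 (SD, n = 2) on X. By comparison, 0.380% of all X tiles of 201 bp and 0.837% of the 2867 X peaks of the pooled list that did not enter the optimal list, held it. Here and below the units tested are peaks or genes of 1 combined list, which are not independent replicates of the experiment.

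Outside promoter windows 22 of 180 X summits (12.2%) held GCGCAGG, against 14 of 519 inside (2.70%). The odds ratio for inside against outside was 0.199 (95% interval 0.0995 to 0.398; two-sided Fisher's exact test, adjusted p = 3.03e-05). Autosomal summits outside promoter windows held it in 9 of 679 cases (1.33%), so X and autosomes differed there by an odds ratio of 10.4 (95% interval 4.68 to 22.9; Fisher's exact test, adjusted p = 9.41e-09), a contrast added after the data were seen. Inside promoter windows the corresponding odds ratio was 1.73 (95% interval 0.934 to 3.20), which did not pass the threshold (Fisher's exact test, adjusted p = 0.136). Bases of X as a whole were 35.2% G or C, X summit windows 47.3%, autosomal summit windows 43.6% and the X windows with GCGCAGG 45.3%.

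Frequency of the motif fell with rank on X. It was at 10 of the 16 X peaks in the top 50 (62.5%, exact 95% interval 35.4 to 84.8%), 2 of 19 at ranks 51 to 200, 6 of 133 at ranks 201 to 1000 (4.51%) and 18 of 531 below (3.39%). It was at 0 of the 34 autosomal peaks in the top 50, which with an exact interval allows up to 10.3%. In replicate 1's top 50, 11 of 17 X peaks and 0 of 33 autosomal peaks held it, and in replicate 2's, 8 of 14 and 0 of 36. X peaks with GCGCAGG had a median signal of 86.6 and a range of 32.3 to 512, against a median of 52.6 without it, and 33 of 36 were in both replicates' top lists. The autosomal peaks with the same letters had a median of 60.1, and 1 of 49 exceeded 200 against 11 of 36 on X.

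**Figure D2:**
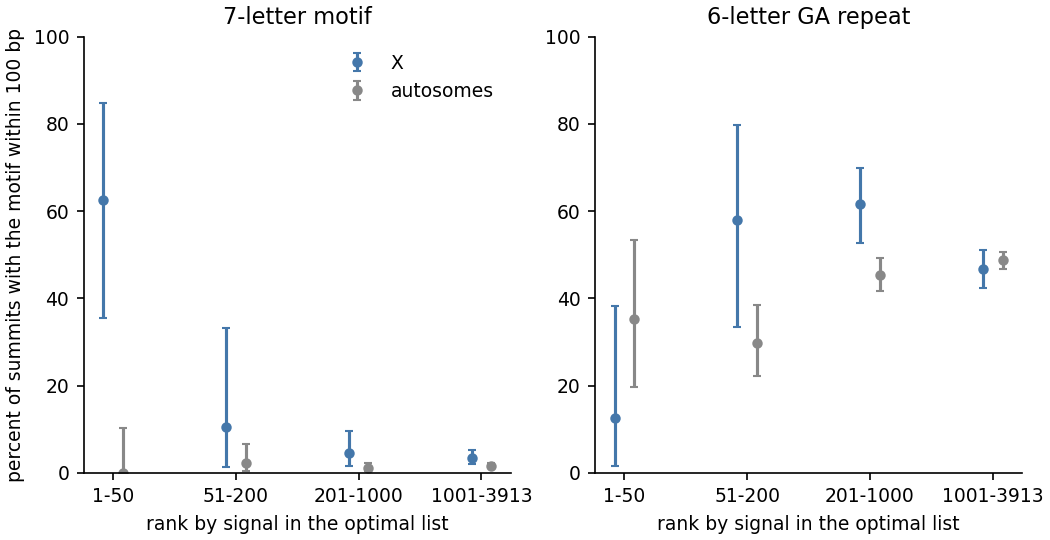
Percent of summits with GCGCAGG (left) and GAGAGA (right) within 100 bp, by rank of the peak's signal in the optimal list, for X (blue) and autosomes (grey); bars are exact 95% binomial intervals. On X the share with GCGCAGG goes from 62.5% in the top 50 to 3.39% beyond rank 1000, and the share with GAGAGA is 12.5% in the top 50, 61.7% at ranks 201 to 1000 and 46.7% beyond.

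The letters next to the motif were uneven as well. TC stood directly before GCGCAGG, giving TCGCGCAGG, at all 10 motif-bearing peaks of the X top 16, and at 15 of all 36 on X, against 1 of 49 on autosomes. Directly after GCGCAGG, a G stood at 8 of the 10, at 24 of the 36 and at 5 of the 49. GAG stood there at 1 of the 10, 6 of the 36 and 0 of the 49. X holds 48 copies of TCGCGCAGG and the autosomes 68. Of the X copies 18 (37.5%) lay within 100 bp of an optimal summit, against 1 of the autosomal copies (1.47%). The 15 X peaks with it had a median signal of 360.0 and a range of 34.9 to 512, and 10 of them exceeded 200. The autosomal peak stood near the lower end of the list. GCGCAGG itself occurs at 20.1 copies per Mb on X and 19.9 on autosomes, and 41 of 357 X copies (11.5%) and 49 of 1642 autosomal copies (2.98%) were at optimal summits. The longer match TCGCGCAGG was examined because the strong peaks showed it, and none of the counts of neighbouring letters was tested. A match is a description of the sequence and does not show that CEH-82 contacts it.

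Other motifs distributed differently. GCGCAG was at 16.7% of X and 9.77% of autosomal summits (odds ratio 1.86, 95% interval 1.47 to 2.34; Fisher's exact test, adjusted p = 1.22e-06), against 2.35% of X tiles. GAGAGA, a GA repeat, was at 49.1% of X and 47.1% of autosomal summits (odds ratio 1.08, 95% interval 0.919 to 1.27; exact test, adjusted p = 0.358), against 9.50% of X tiles. Outside promoter windows GAGAGA was less frequent on X than on autosomes, 45.6% against 68.8% (odds ratio 0.380, 95% interval 0.272 to 0.531; exact test, adjusted p = 5.92e-08), and inside them more frequent, 50.3% against 41.3% (odds ratio 1.44, 95% interval 1.19 to 1.74; exact test, adjusted p = 6.18e-04). Both of these contrasts were added after the data were seen. TAATTA, a typical homeodomain site, was at 2.86% of X summits, 8.30% of the windows beside them and 10.2% of X tiles, and its difference from the 4.14% of autosomal summits did not pass (odds ratio 0.682, 95% interval 0.423 to 1.10; exact test, adjusted p = 0.230). Split by position, in contrasts also added after the data were seen, TAATTA was more frequent on X outside promoter windows, 9 of 180 against 1.62% (odds ratio 3.20, 95% interval 1.30 to 7.84; exact test, adjusted p = 0.0370). Inside them it was less frequent, 2.12% against 4.81% (odds ratio 0.428, 95% interval 0.229 to 0.800; exact test, adjusted p = 0.00773). The outside call, which rests on 9 X summits, was lost in either replicate's own list (odds ratios of 1.63 and 2.49). TGATAA was at 4.58% of X and 7.09% of autosomal summits (odds ratio 0.628, exact test, adjusted p = 0.0348), a call lost in either replicate's own list. For CACGTG and CAGCTG the odds ratios were 1.27 and 0.768, and neither passed.

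Most X sites lay in promoters, in a somewhat smaller share than on autosomes. Of the 699 summits, 519 (74.2%) were inside a promoter window and 180 outside, against 78.9% inside on autosomes and 78.0% over the whole list (odds ratio 0.772, 95% interval 0.639 to 0.933; two-sided Fisher's exact test, p = 0.00870). In the top list of each replicate the share was 73.0% ± 1.19 (SD, n = 2). Single autosomes ran from 74.3% on III to 82.2% on V, so chromosome III was level with X. Intergenic sequence held 121 X summits (17.3%) against 12.2% on autosomes (odds ratio 1.50, 95% interval 1.20 to 1.88; Fisher's exact test, p = 0.00334 adjusted over 7 classes). The chromosomes also differ in what they offer, since 22.8% of X bases and 14.9% of autosomal bases were intergenic, and 35.5% and 39.3% were in promoter windows. Relative to bases, promoter summits were 2.09 times as frequent on X and 2.01 times on autosomes, and intergenic summits 0.759 and 0.822 times. Leaving out peaks with GCGCAGG, which was tried after the data were seen, moved the odds ratio for promoters to 0.858 (exact test, p = 0.133).

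Introns held 48 X summits (6.87%, against 8.0% on autosomes; odds ratio 0.848, 95% interval 0.616 to 1.17; exact test, adjusted p = 0.613). Coding exons outside promoter windows held 7 (1.00% against 0.124%; odds ratio 8.12, 95% interval 2.37 to 27.8; exact test, adjusted p = 0.00334). Apart from the pks-1 site at 276, the other 6 coding-exon summits had signals of 29.8 to 39.2, near the lower end of the list. Non-coding exons held 2, and untranslated regions outside promoter windows held 1 at 5' ends and 1 at 3' ends. The 2867 weaker X peaks of the pooled list were distributed differently, with 48.1% in promoter windows and 7.57% in coding exons.

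**Figure D3:**
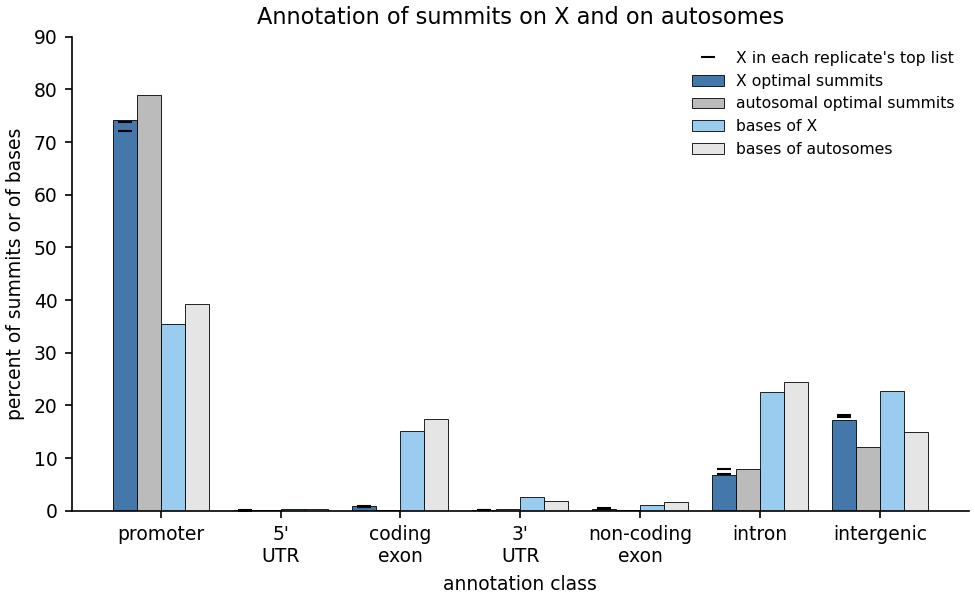
Percent of optimal summits on X and on autosomes, and percent of bases of each, in 7 annotation classes; short black marks are X summits in the top list of each replicate. Promoters hold 74.2% of X summits against 35.5% of X bases, and intergenic sequence 17.3% against 22.8%.

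The share of protein-coding genes bound on X was below that of all autosomal genes, though not below that of every autosome. A larger share of X promoter peaks lay in windows of non-coding genes alone. A gene counted as bound if at least 1 of its transcripts had a summit in its promoter window, and 387 of 2731 X-linked protein-coding genes met this (14.2%), against 2814 of 17242 autosomal genes (16.3%) and 16.0% genome-wide (odds ratio 0.847, 95% interval 0.755 to 0.950; two-sided Fisher's exact test, p = 0.00419). Of the 519 promoter peaks, 366 were in coding windows and 153 (29.5%) in windows of non-coding genes alone, against 16.6% on autosomes (odds ratio 2.09, two-sided Fisher's exact test added after the data were seen, p = 7.02e-11). Of these 153 X peaks, 118 lay in windows of ncRNA genes and 67 in windows of tRNA genes, and a peak can lie in both kinds. X carries 276 annotated tRNA genes, of which 93 (33.7%) were bound, against 119 of 336 on autosomes (35.4%), so the bound shares lay close together. Bound shares were lower on X for 240 of 2520 ncRNA genes (9.52%) against 12.5% on autosomes, 8 of 33 snoRNA genes (24.2%) against 40.6% and 6 of 74 miRNA genes (8.11%) against 17.1%. They were higher on X for lincRNA genes, with 6 of 38 (15.8%) against 14.1%, and for snRNA genes, with 1 of 3 against 11.1%. No test was made of these classes.

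Shared promoters were rarer among X peaks than among autosomal ones. Of its 366 peaks in coding windows, 36 (9.84%) lay in windows of more than 1 coding gene, against 37.1% on autosomes (odds ratio 0.185, two-sided Fisher's exact test added after the data were seen, p = 1.19e-28). Of the bases in coding promoter windows, 4.51% on X and 11.3% on autosomes belonged to more than 1 gene, and X carries 154 coding genes per Mb against 209. Summits in coding windows sat a median of 236 bp upstream of the 5' end, 93.2% were upstream, and 42.1% were within 200 bp. Summits outside promoter windows were a median of 2115 bp from the nearest coding 5' end, and 23 of 180 (12.8%) were over 5 kb away.

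Bound X genes were unevenly spread over the functional groups examined, most of which have few members on X. Read against the 14.2% of all X-linked coding genes, bound members numbered 3 of 3 for the mitochondrial ribosome and respiratory chain, 3 of 3 for proteasome and translation factors, 5 of 8 for pan-neuronal genes and 7 of 27 for nuclear hormone receptors. The respiratory genes were sdha-1, a succinate dehydrogenase subunit with a signal of 124, and ucr-2.1 (80.9) and ucr-2.2 (63.8), subunits of the cytochrome bc1 complex. The translation factors beside eef-1A.2 were the cap-binding proteins ife-2 (72.1) and ife-4 (45.7). Bound neuronal genes included syd-2, a presynaptic scaffold (65.8), jkk-1, a kinase (58.1), and unc-18, a regulator of synaptic vesicle fusion (47.5). The 4 strongest nuclear hormone receptors were, in falling order of signal, nhr-255 (106), nhr-1, nhr-48 (97.1) and nhr-40 (90.1).

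Several groups had bound shares below the 14.2% of all X-linked coding genes. None of 26 potassium channels and innexins, 44 aminergic and peptide receptors, 34 chemoreceptors, 5 vitellogenins or 3 C-type lectins was bound. These groups were low over all chromosomes too, at 3.23%, 0.820%, 1.25%, 0% and 2.08%. Bound members numbered 1 of 36 for neuropeptides and insulins, 1 of 30 for cuticle collagens, 1 of 18 for nspc peptides, 1 of 16 for body wall muscle genes, 1 of 17 for F-box and BTB/MATH proteins and 2 of 26 for homeobox genes. Near the 14.2% of all X-linked coding genes were the ligand-gated channel list with 4 of 30 (13.3%) and axon guidance and matrix genes with 3 of 18 (16.7%). Counted on every chromosome, these were at 6.48% and 12.5%. Above it, with few members, were heat shock proteins and chaperonins with 2 of 5, cytosolic ribosomal proteins with 1 of 2 and splicing factors with 1 of 2. Over all chromosomes 52.5%, 90.1% and 67.3% of these groups were bound. Bound members of the ligand-gated channel list were glr-6, a glutamate receptor (signal 88.4), lev-9 (46.3), and the acetylcholine receptor genes acr-12 (31.3) and acr-2 (27.9). The signal of 451 at nspc-17 and that of 360.0 at ins-39 stood far above the other list members, and both windows hold GCGCAGG.

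Among 6 X-linked genes of sex determination and dosage compensation, 3 had a summit in a promoter window (beside 14.2% of all X-linked coding genes, with too few members to read a difference). They were sdc-2, which targets the dosage compensation complex to X (signal 83.6, with 54.0 in replicate 1 and 36.2 in replicate 2, 411 bp upstream), ceh-39, a homeobox gene that represses xol-1 (81.2, with 52.8 and 27.0), and sdc-1, a zinc finger gene that acts with sdc-2 (59.0, with 37.4 and 29.6). All 3 lay above the X median of 54.1. The windows of xol-1, sex-1 and fox-1 held no summit. The nearest summit to a 5' end of fox-1, an RNA-binding protein that counts X chromosomes with ceh-39 and sex-1, was 683 bp downstream with a signal of 33.1, and that to sex-1 was 7950 bp away.

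Inside and outside promoter windows, typical strength was similar and the upper ends differed. The median signal was 56.2 inside (range 27.7 to 451) and 47.9 outside (27.8 to 512), and the middle of both distributions overlapped. In the replicates' own lists the medians were 34.6 and 28.5 in replicate 1, and 23.1 and 21.1 in replicate 2. Intergenic X summits had a median of 51.9 and intronic ones 37.6. Outside peaks with GCGCAGG had a median of 93.6 and those without it 42.6. The X median of 54.1 stood beside an autosomal median of 56.1.

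Support by both replicates was close to that of the autosomes. A peak was supported when it overlapped, by at least 1 bp, a peak of each replicate's 3913 strongest. On X 556 of 699 (79.5%) were, against 80.6% on autosomes and 80.4% over the list (odds ratio 0.939, 95% interval 0.766 to 1.15; two-sided Fisher's exact test, p = 0.563). In the top list of replicate 1 alone were 90 X peaks, in that of replicate 2 alone 48, and in neither 5. Every X peak overlapped a peak in replicate 1's full list and 694 did in replicate 2's, where the Spearman correlation of the signals was 0.761 across these 694 peaks, which share the control and the selection by both lists. The full lists hold peaks and background, 24014 and 30000 entries, down to −log10 q-values of 0.0178 and 0.0333. Overlap with them is thus a loose criterion, which 3208 and 3209 of 3214 autosomal peaks also met. Support followed signal, with 175 of the 175 strongest X peaks in both top lists and 54 of the 175 weakest (30.9%). The optimal list was itself selected for agreement between the replicates, so support, here and in the next comparison, is in part fixed by that selection. Its signal also derives from both replicates, so the link of signal with support is partly built in.

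Promoter peaks were supported more often than the others on X, at 423 of 519 (81.5%) against 133 of 180 (73.9%; odds ratio 1.56, 95% interval 1.04 to 2.32; two-sided Fisher's exact test, p = 0.0322). At matched signal the shares lay closer. Between signals of 27.7 and 41.9 they were 43.9% inside and 39.7% outside, from 41.9 to 69.2 they were 95.1% and 100%, and above 69.2 both were 100%. The call was lost under 50% reciprocal overlap, under lists of 2000 or 6000 peaks, in each replicate alone and with a window of 2000 bp.

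**Figure D4:**
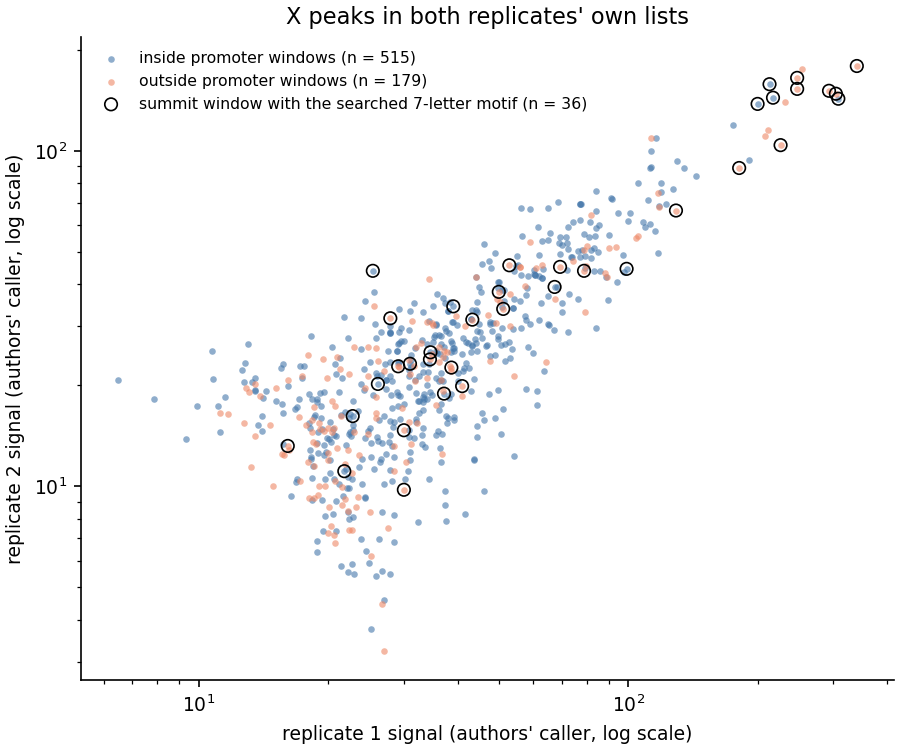
Signal of X peaks in the full list of replicate 1 (x axis, log scale) and of replicate 2 (y axis, log scale), for 515 peaks inside and 179 outside promoter windows; black rings mark the 36 peaks with GCGCAGG. Most peaks at the upper right are ringed, and unringed ones there include X peak 5 (254 in replicate 1, 175 in replicate 2) and X peak 8 (231 and 140.3), while the spread between replicates widens toward low signals.

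The share of sites on X was close to its share of the genome. Its 17.9% of optimal peaks (exact 95% interval 16.7 to 19.1%) compared with 17.7% of the nuclear bases, a ratio of 1.01 (exact binomial test, two-sided, p = 0.753). Density was 39.4 peaks per Mb, and the replicates' top lists gave 40.2 ± 0.439 (SD, n = 2). The autosomes ran from 26.6 per Mb on V to 52.2 on III. Candidate peaks of the pooled list were denser on X, at 201 per Mb against 162 on autosomes. Of these candidates 19.6% on X entered the optimal list, against 24.0% on autosomes. The odds ratio was 0.773 (95% interval 0.706 to 0.848, two-sided Fisher's exact test, p = 2.51e-08). Single autosomes ran from 19.7% on V to 27.1% on I, so chromosome V was level with X in this share. Against its share of protein-coding gene starts, X held 1.31 times as many peaks (exact binomial p = 2.08e-13), as it carries fewer genes per Mb.

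Sites were found along the whole of X. Each full 1-Mb bin held 31 to 55 peaks, with a median of 39, whereas V had bins of 6 to 44. The bins of I held 33 to 81 peaks and those of III 32 to 80. Cut into 3 equal parts, X had 33.5%, 30.5% and 36.1% of its peaks from left to right, while each autosome had 39.2 to 44.5% in its central part. The central part of X held 35.7% of its coding gene starts. The median distance between neighbouring summits was 13644 bp, 23.2% of peaks had a neighbour within 2 kb and 64.9% within 10 kb. No peak lay in 14 of 178 bins of 100 kb (7.87%), against 43 of 210 on V (20.5%) and 9.14% on IV. Empty bins were fewer than on X on I (1.32%), II (4.58%) and III (1.45%). The widest interval, 210757 bp, began at the intergenic peak at chrX:1627035-1627226, which had a signal of 320.1 (208 in replicate 1, 111 in replicate 2) and stood 1004 bp upstream of fbxb-58, and ended at chrX:1837760-1838019 with a signal of 47.9.

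The densest bin of 100 kb, chrX:13500001-13600000, held 12 peaks. Its strongest, with a signal of 194 (129 and 66.4), was intergenic, held GCGCAGG and lay 3494 bp from col-185. Others lay upstream of pab-2, which encodes a poly(A)-binding protein (117), of bra-1 (77.0), of F54B11.5 (57.1) and of the pair F18H3.1 and cdk-4, a cyclin-dependent kinase gene (57.1). Peaks with GCGCAGG were far sparser, with a median spacing of 368134 bp and a widest interval of 2283091 bp. The 16 strongest X peaks stood 215312 to 1763338 bp apart, with a median of 1212182 bp.

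**Figure D5:**
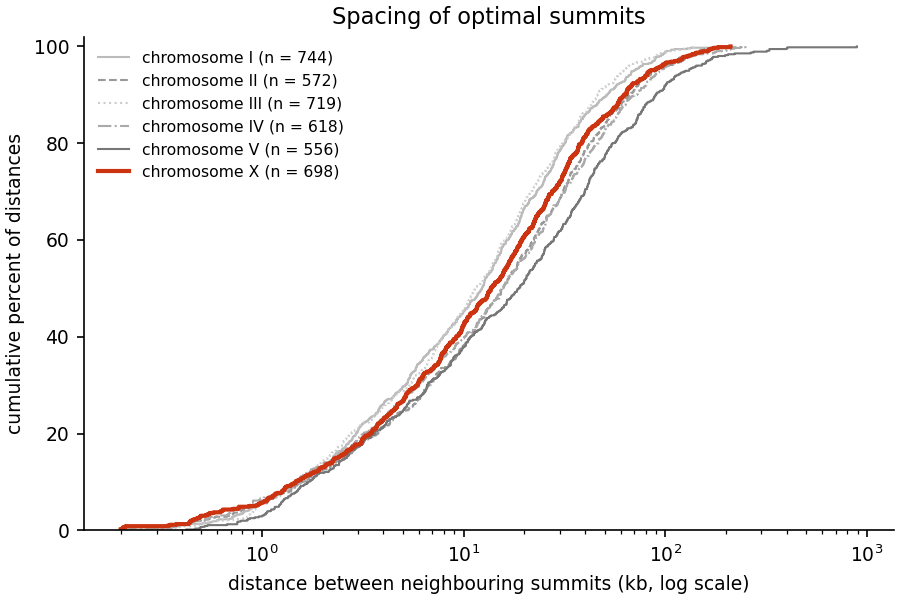
Cumulative percent of distances between neighbouring optimal summits (x axis, kb, log scale) for each chromosome, X in red; n is the number of distances. X, with a median of 13644 bp, runs between chromosomes III (11373 bp) and V (18762 bp), and its widest interval is 210757 bp.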

How the data were processed

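ChIP-seq of eGFP-ceh-82 in 2 biological replicates of whole L1 larvae was analysed from peak lists on ce11; the ce10 lists were used for counts only (695 X peaks of 3890). Per the deposited read-me files, the authors called peaks per replicate and on the pooled replicates against the same control alignment, and derived the optimal list by irreproducible discovery rate (IDR). The sources used here do not name the aligner, the caller or the IDR threshold. The deposited lists give a signal per peak, a q-value as −log10, which has a ceiling of 3.82 reached by 83.4% of X peaks, and the summit's distance from the peak start in bp. Peaks were ordered by signal, then q-value, then start. Depth is unknown, so intervals cover counting of peaks only.

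Summits were classed with Ensembl release 115 on WBcel235 (ce11), in the order promoter, 5' untranslated, coding exon, 3' untranslated, non-coding exon, intron and intergenic. Sequence came from the RefSeq genome, and coordinates are 1-based. Windows beside summits were the bases 300 to 400 bp away on both sides, and tiles were 201 bp long. Tests were two-sided Fisher's exact tests and exact binomial tests at a threshold of 0.05, with Benjamini-Hochberg adjustment over 7 classes or 7 motifs. Python 3.11.15, numpy 2.4.6, pandas 2.3.3, scipy 1.17.1 and matplotlib 3.10.9 were used, and the class, overlap, motif and test steps were tested on simulated data.

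Named peaks and genes followed a rule: the 15 strongest X peaks inside promoter windows and the 12 strongest outside, the 3 weakest, those at the widest interval and in the densest bin, and up to 4 bound members of each of 21 gene lists. Chemoreceptors were counted and not named. The members and lists were chosen with earlier results of these data known. Alternatives were the stronger 1956 peaks, ce10, other windows and list lengths, and each replicate alone. No paired analysis was possible because the samples form 1 group.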

Additional observations from a re-analysis of the deposited data

How the results depend on the processing

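Over 28 results and 121 alternatives, 90 values kept their direction and their side of the threshold, 15 no longer passed, 7 newly passed, 8 changed direction and 1 moved; the causes were not tested. For X density (ratio 1.01), the stronger 1956 peaks gave 0.972, the share of gene starts 1.31 and the share of promoter-window bases 1.10. The odds ratio for promoters on X (0.772) was 0.757 in the stronger 1956 peaks (exact p = 0.0684), 0.810 with a 2000 bp window (exact p = 0.0843) and 0.858 without GCGCAGG peaks. The same odds ratio was 0.730 with a 500 bp window (exact p = 4.22e-04). Windows of protein-coding genes alone gave 0.573 (exact p = 5.30e-11). Support of X against autosomes (0.939) ran from 0.883 to 1.07 with 1 replicate left out and changed direction without replicate 2, and neither value passed. Support inside against outside promoter windows (1.56) was 1.31 with 50% reciprocal overlap, 1.30 with lists of 2000 peaks, 1.05 with lists of 6000, 1.49 with a 2000 bp window, and 1.48 to 1.54 with 1 replicate left out, none past the threshold. Among the stronger 1956 peaks every X peak and every autosomal one was supported, so neither comparison of support had a value. The odds ratio for GCGCAG inside against outside (0.777) was 0.359 in the stronger 1956 peaks (exact test, adjusted p = 0.00261). The calls for GCGCAGG kept their side of the threshold under the alternatives run. Calls gained among motifs were GAGAGA on X against autosomes in the stronger 1956 peaks (1.37, exact test, adjusted p = 0.0193), and, inside against outside, TAATTA in the stronger 1956 peaks (0.103, adjusted p = 0.00261) and without replicate 2 (0.309), and CACGTG without replicate 1 (0.462). For motifs that did not pass, GAGAGA on X against autosomes ran from 0.982 to 1.03 with 1 replicate left out and changed direction without replicate 2 and within 50 bp (0.897), CAGCTG in the stronger 1956 peaks (1.19) and within 50 bp (1.07), and TGATAA within 50 bp, inside against outside (1.22) and outside on X against autosomes (0.576). The ratio of median signals inside and outside (1.17) was 1.31 without GCGCAGG peaks. With 2 replicates and 1 control for both, errors of that control are shared by every list.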
